A study of Mus musculus with 97 samples.

Results

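The 10 genes described here encode a ligand, a receptor, transcriptional outputs and inhibitors of FGF4-ERK signalling in mouse embryonic stem (ES) cells. They are Fgf4, Fgfr1, Dusp4, Dusp5, Dusp6, Spry2, Spry4, Etv4, Etv5 and Spred1, and they were taken by symbol from a count table of 37620 genes. The table holds 11 entries with one of these symbols, because Fgfr1 has a second entry with 0 counts in all 18 libraries. The other 10 entries, 1 for each gene, passed the filter on low counts, as did 16011 genes in all.

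FGF4 is secreted by ES cells and acts through FGF receptors, RAS, RAF and MEK to activate the kinase ERK. Active ERK induces the ETS factors Etv4 and Etv5, and it also induces its own brakes, which are dual-specificity phosphatases that take phosphate off ERK and the Sprouty and Spred proteins that act between receptor and RAF. In ES cells the pathway primes exit from the pluripotent state, and Fgf4 is a textbook target of Sox2 together with Oct4.

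RNA came from Sox2-AID mouse ES cells, in which Sox2 is fused to an auxin-inducible degron, a tag that directs the protein to degradation once auxin is added. The 6 groups of 3 libraries were early G1, late G1 and G2, each untreated or after 0.5 mM auxin for 3 h. All cells carry the degron, so the untreated groups are also Sox2-AID cells. No library came from auxin-treated cells without the degron, so effects of auxin itself and of Sox2 loss cannot be told apart. The labels give Hoechst-33342 at 20 µM for the last 20 min, sorting on Hoechst and GFP, and ribosomal RNA depletion of total RNA. They do not say what the GFP reports, whether the line is a single clone, or whether libraries of a group came from separate cultures, so p-values measure the spread between these libraries, which may be technical. The medium held serum and LIF, and the labels add the MEK inhibitor PD0325901 and CHIR99021 only for cases where they were needed. Whether the sorted cells had received the MEK inhibitor, which blocks ERK activation, is not given in the sources used here. The question of this RNA experiment, per the series' design text, is what possible bookmarking by Sox2, that is its binding to mitotic chromosomes, means for expression over the cell cycle.

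Total counts were 24841963 to 37587322 per library, and 1 gene held 15.8% to 21.2% of them. The 10 genes had between 331 and 12891 counts in a library. Libraries of a group differed by a chi-square per degree of freedom of 16.0 to 59.2, far above counting error. The log2 difference of Sox2 mRNA with auxin was 0.09 ± 0.08 ( SE, average of 3 phases, edgeR adjusted p = 0.527). Auxin acts on the protein, so this value checks neither the depletion nor the labels.

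Promoter sequences from RefSeq (GRCm38.p6) were matched by symbol for 6 of the 10 genes, namely Fgf4, Dusp5, Dusp6, Spry2, Spred1 and Etv5, which has a pair of entries. The 250 bases before the start are printed for 3 of them. Fgf4 and Dusp5 are shown because they carry the responses below, and Dusp6 because it is a phosphatase of the same class that did not pass the test. In Fgf4 the capitals mark a CCAAT box and the GC box GGGCGG, in Dusp5 the CArG box, which is the motif of serum response factor, and in Dusp6 the ETS core GGAA, each on either strand.
Fgf4, chr7:144861136-144861385, plus strand: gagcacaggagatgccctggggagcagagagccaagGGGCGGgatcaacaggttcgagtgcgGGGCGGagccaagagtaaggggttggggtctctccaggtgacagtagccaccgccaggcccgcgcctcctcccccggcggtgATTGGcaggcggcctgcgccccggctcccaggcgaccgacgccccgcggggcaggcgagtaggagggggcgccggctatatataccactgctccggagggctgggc
Dusp5, chr19:53528895-53529144, plus strand: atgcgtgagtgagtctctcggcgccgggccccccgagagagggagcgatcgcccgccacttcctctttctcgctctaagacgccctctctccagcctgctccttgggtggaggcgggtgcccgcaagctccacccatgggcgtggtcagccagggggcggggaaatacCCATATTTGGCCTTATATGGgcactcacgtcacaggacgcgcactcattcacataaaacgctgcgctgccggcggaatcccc
Dusp6, chr10:99262981-99263230, plus strand: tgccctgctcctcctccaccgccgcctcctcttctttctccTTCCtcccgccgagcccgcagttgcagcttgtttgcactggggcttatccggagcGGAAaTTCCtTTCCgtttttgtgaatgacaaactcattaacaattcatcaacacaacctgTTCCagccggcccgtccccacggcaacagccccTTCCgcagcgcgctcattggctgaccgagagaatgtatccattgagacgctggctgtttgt

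The Dusp5 window holds 2 CArG boxes that abut each other, from 82 to 73 and from 72 to 63 bases before the start. A CArG box stands in 1.47% of the 32851 RefSeq windows of this length, and in none of the other 6 windows of these genes. GGAA stands in 93.4% of all windows. It occurs 6 times in Dusp6, 3 times in Dusp5 and 0 times in Fgf4. The Fgf4 window, with 71.2% G and C, holds 2 GC boxes and 1 CCAAT box, motifs found in 32.7% and 33.8% of all windows, and these marked motifs do not overlap. The Sox core ACAAT occurs in 27.7% of windows and in 1 of the 7 windows of these genes, that of Dusp6. The octamer ATGCAAAT (1.6% of windows) occurs in none of the 7. These are matches of letters, searched on both strands of 250 bases, and they say nothing of which factor binds. Sequence outside these windows was not searched, so a motif absent here may stand elsewhere at the gene.

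On the authors' deposited TPM, which corrects for transcript length, Etv5 was the most abundant of the 10 genes. Its median over the 18 libraries was 18.4 TPM (range 12.1 to 22.8), and it was above every other gene of the group in all 18 libraries. Etv4 followed with a median of 10.5 TPM, Dusp6 with 10.5, Fgf4 with 8.4, Spred1 with 5.96, Spry2 with 5.76, Spry4 with 3.75, Fgfr1 with 2.42, Dusp4 with 1.7 and Dusp5 with 1.57. Neighbours in this order were not always apart. Spred1 was above Spry2 in 8 of 18 libraries and Dusp4 above Dusp5 in 10 of 18, so neither pair has a fixed order. Etv4 was above Dusp6 in 14 of 18, Dusp6 above Fgf4 in 14 and Fgf4 above Spred1 in 16. Every other step of the order held in at least 17 of 18 libraries.

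**Figure D1:**
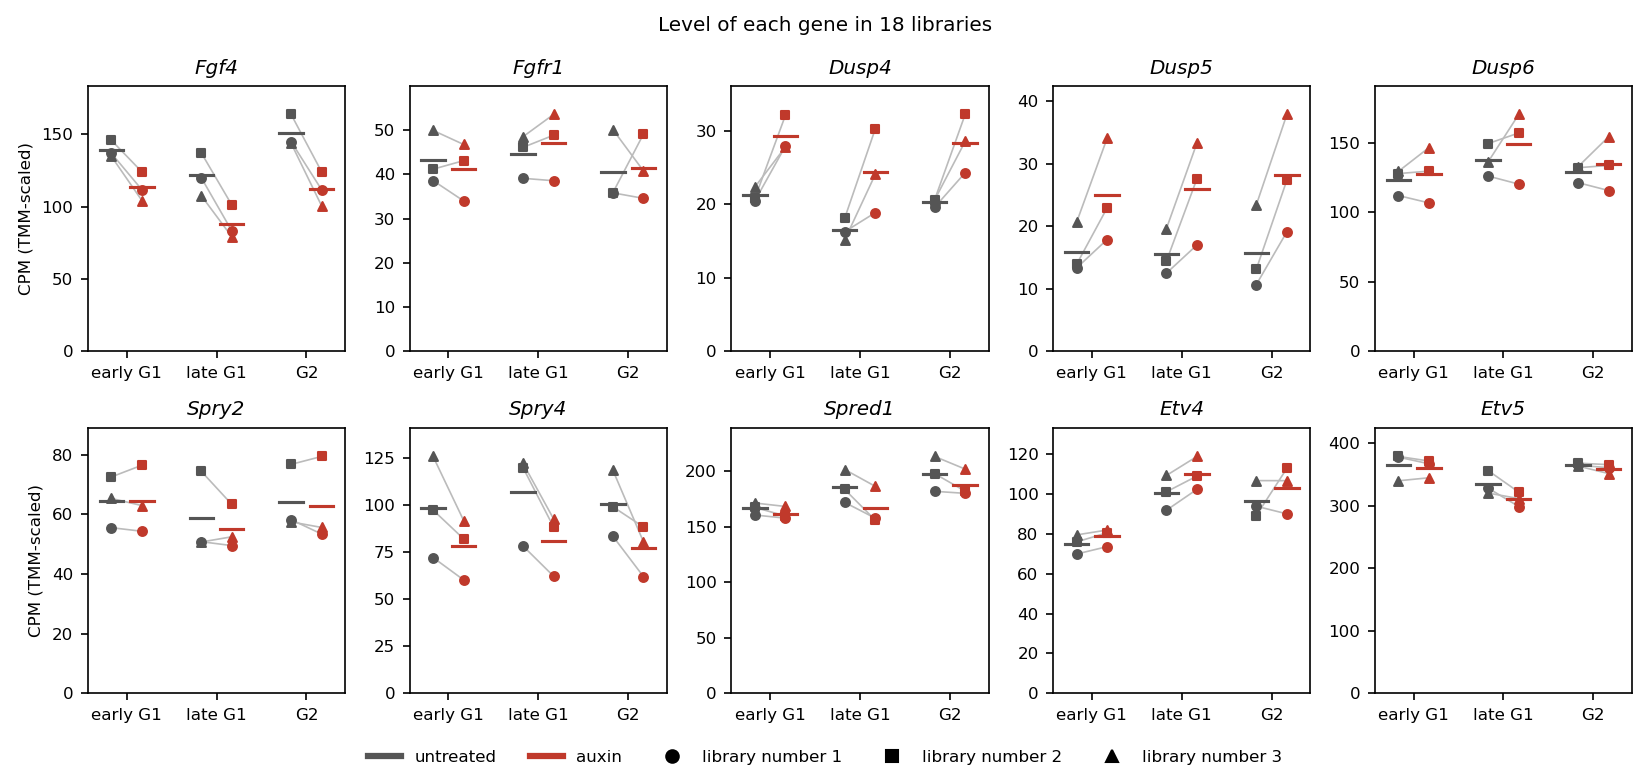
CPM (counts scaled to library size by TMM) of the 10 genes in each of 18 libraries, by cell-cycle phase, with grey for untreated and red for auxin. Points are libraries, their shape is the library number, thin lines join libraries of the same number, and bars are group means of 3; Fgf4 lies lower and Dusp4 higher with auxin in every phase without overlap, while Dusp5 and Spry4 overlap between groups and move the same way along each line.

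With auxin, the ligand Fgf4 fell and the phosphatases Dusp4 and Dusp5 rose in the average over the 3 phases, and the other 7 genes did not pass the test. Spry4, Etv4 and Spred1 passed in a fit with the library number as a block, given below, and Spry4 also in DESeq2. For the average, the numbers do not pass the pairing limit given below. Fgf4 fell by 24.1%, Dusp4 was 41.8% higher and Dusp5 was 67.4% higher. The 3 of 10 genes called stand beside 5.68% of all tested genes called in that comparison (2.6% up, 3.09% down), at an edgeR adjusted p under 0.05. The median log2 change was -0.01 over the 10 genes and 0.01 over all tested genes, with 5 of the 10 above 0. In bulk RNA, fewer cells of a type and less RNA per cell cannot be told apart.

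Fgf4 is the FGF that ES cells secrete in largest amount. In early G1 its level in CPM, the count scaled to library size, was 137, 146 and 135 in untreated libraries 1, 2 and 3 and 112, 124 and 104 CPM with auxin. In late G1 it was 120, 137 and 108 CPM untreated and 83.3, 101 and 79.2 CPM with auxin. In G2 it was 145, 164 and 144 CPM untreated and 112, 124 and 100.5 CPM with auxin. Every auxin library was below every untreated library of its phase, which holds for 6.07%, 6.88% and 5.5% of tested genes in the 3 phases in that direction. The average log2 fold change was -0.40 ± 0.06 (SE, edgeR adjusted p = 0.000742), lower with auxin in 9 of 9 libraries against the untreated library of the same number. It stayed called without any 1 of the 18 libraries, with an adjusted p of at most 0.00301, and on TPM (-0.54 ± 0.11, pseudocount 1, limma adjusted p = 0.014). On TPM the median of all genes was itself below 0, and more genes were called down than up, as given below. Here and below, the 9 same-number comparisons are 3 library numbers in each of 3 phases, so they need not be independent. The share of all genes with 9 of 9 was not computed.

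By phase, the log2 difference of Fgf4 was -0.47 ± 0.11 in late G1 (edgeR adjusted p = 0.0483), -0.43 ± 0.11 in G2 (adjusted p = 0.101) and -0.30 ± 0.11 in early G1 (adjusted p = 0.776). The late G1 call was the only one among the 10 genes in a single phase, where 1.02% of all genes were called and 0.525% in that direction. It was lost without late G1 auxin library 1 or 3 or untreated library 1 or 2 (highest adjusted p 0.246). With the replicate number as a block, Fgf4 was called at both G1 stages, late (-0.47 ± 0.05, adjusted p = 5.74e-06) and early (-0.30 ± 0.05, adjusted p = 0.00299). The size was the same and the error smaller by a factor of 2.04 in early G1 and 2.03 in late G1.

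Fgfr1, the main FGF receptor of ES cells, lay between 34.01 and 53.6 CPM in all 18 libraries, and its groups overlapped in every phase. Its average log2 fold change was 0.01 ± 0.10 (edgeR adjusted p = 0.948), with a value above the untreated library of the same number in 4 of 9 cases. On TPM its value was below 0, at -0.20 ± 0.11 (limma adjusted p = 0.182).

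Dusp4, a nuclear phosphatase of ERK and related kinases, rose. In early G1 it was 20.5, 20.8 and 22.4 CPM in the untreated libraries and 27.9, 32.1 and 27.8 CPM with auxin. In late G1 it was 16.3, 18.1 and 15.2 CPM untreated and 18.9, 30.3 and 24.1 CPM with auxin. In G2 it was 19.6, 20.6 and 20.6 CPM untreated and 24.3, 32.2 and 28.6 CPM with auxin. The groups were separate in each phase, as for 5.25%, 6.81% and 5.47% of tested genes in that direction, and auxin library 2 was the highest each time. The average log2 fold change was 0.50 ± 0.08 (edgeR adjusted p = 0.000639, higher in 9 of 9), and it stayed called without any 1 library (adjusted p at most 0.00201).

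Within single phases Dusp4 did not pass the test, at 0.56 ± 0.14 in late G1 (edgeR adjusted p = 0.0605), 0.48 ± 0.14 in G2 (adjusted p = 0.157) and 0.47 ± 0.14 in early G1 (adjusted p = 0.46). With the replicate block it was called in late G1 (0.54 ± 0.10, adjusted p = 0.00114) and early G1 (0.46 ± 0.10, adjusted p = 0.012). The call of the average was lost on TPM, where the difference was 0.18 ± 0.09 (pseudocount 1, limma adjusted p = 0.172) and the median of all genes itself was -0.08.

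Dusp5, a nuclear phosphatase specific for ERK and the gene with the CArG boxes shown above, rose by the most among the 10 and with the widest spread. In early G1 it was 13.3, 13.9 and 20.6 CPM untreated and 17.9, 22.9 and 34.05 CPM with auxin. In late G1 it was 12.5, 14.4 and 19.6 CPM untreated and 17.02, 27.6 and 33.3 CPM with auxin. In G2 it was 10.7, 13.1 and 23.4 CPM untreated and 19.1, 27.4 and 37.9 CPM with auxin. Library 3 was the highest of its group in all 6 groups, so untreated and auxin groups overlapped in each phase. Against the untreated library of the same number, the auxin library was 1.34-fold to 2.08-fold higher in 9 of 9 cases. These cases need not be independent, and for auxin in G2 the numbers do not pass the pairing limit given below.

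The average log2 fold change of Dusp5 was 0.74 ± 0.20 (edgeR adjusted p = 0.0443). The call held in 5 of the 18 fits that each left out 1 library, and was lost without any of the libraries numbered 2, without any auxin library numbered 3, without untreated late G1 library 3 and without any untreated library numbered 1. The highest adjusted p was 0.0954, without G2 auxin library 3, and the change stayed between 0.65 and 0.88. It was also lost without all 6 libraries numbered 2 (adjusted p = 0.194) and without the low-count filter (adjusted p = 0.0974). On TPM it was 0.33 ± 0.14 (limma adjusted p = 0.12). In single phases it did not pass, at 0.84 ± 0.35 in G2, 0.75 ± 0.35 in late G1 and 0.65 ± 0.35 in early G1 (edgeR adjusted p = 0.551, 0.486 and 0.867). With the replicate block it was 0.72 ± 0.10 in late G1 (adjusted p = 8.2e-05) and 0.62 ± 0.10 in early G1 (adjusted p = 0.00105), with an error smaller by a factor of 3.45 in both.

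Dusp6, the cytoplasmic phosphatase specific for ERK, lay between 107 and 171 CPM and did not pass the test. Its average log2 fold change was 0.08 ± 0.08 (edgeR adjusted p = 0.562, higher in 6 of 9), and -0.13 ± 0.11 on TPM, so its sign differed between counts and TPM. The auxin library was 0.95-fold to 1.25-fold of the untreated library of the same number. The difference between Dusp6 and the other phosphatases was not tested.

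**Figure D2:**
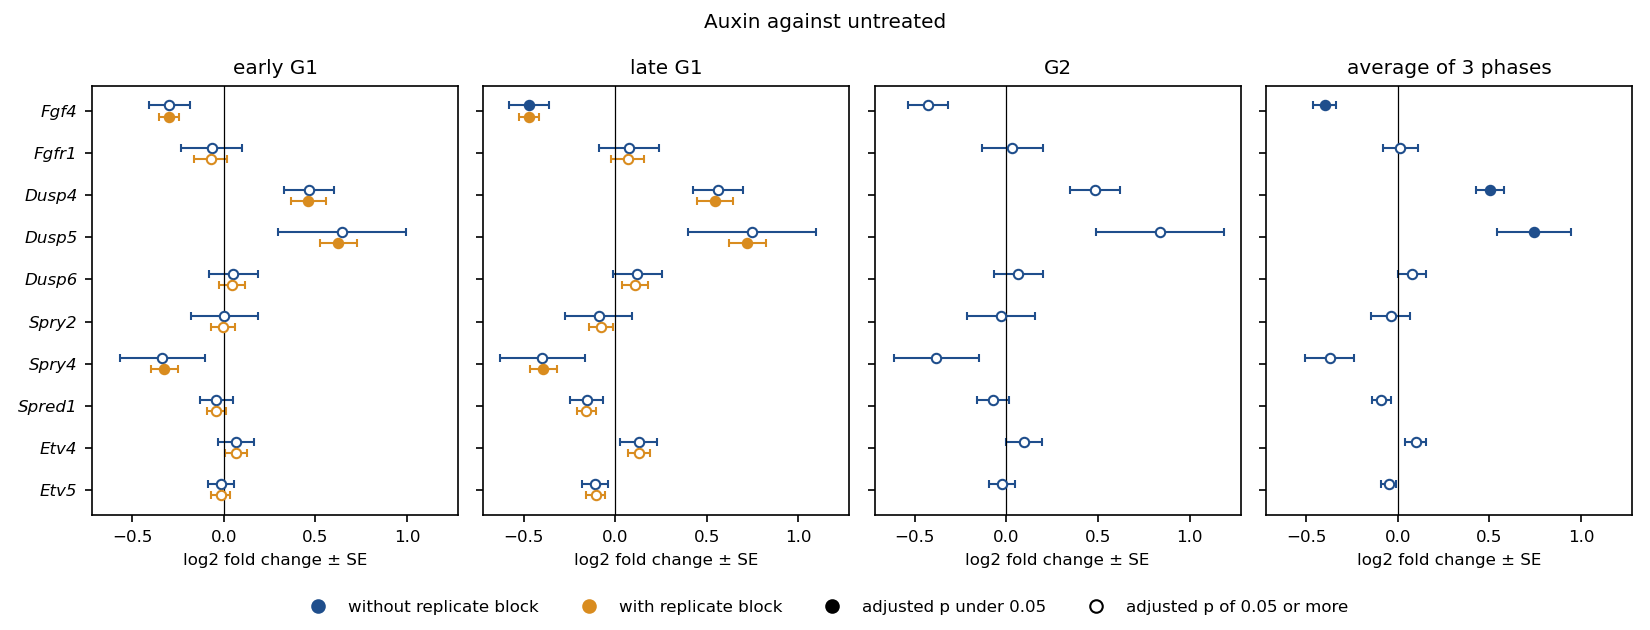
Log2 fold change with auxin of each gene (points) and its SE (bars) in early G1, late G1, G2 and their average, without the replicate block (blue) and, for early and late G1, with it (orange); filled points have an adjusted p under 0.05. Dusp4 and Dusp5 lie above 0 and Fgf4 and Spry4 below 0 in all panels, and in early and late G1 the block shortens the bars with little change in the points.

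The Sprouty protein gene Spry4 was lower with auxin in 9 of 9 libraries against the untreated library of the same number, yet it did not pass the test. In early G1 its level was 72.1, 97.3 and 126 CPM untreated and 60.2, 82.0 and 91.7 CPM with auxin. In late G1 it was 78.2, 120 and 122 CPM untreated and 62.2, 88.3 and 92.6 CPM with auxin. In G2 it was 83.4, 99.0 and 118 CPM untreated and 62.0, 88.3 and 80.5 CPM with auxin. The groups overlapped in each phase because the libraries numbered 1 were low with and without auxin. Its average log2 fold change was -0.37 ± 0.13 (edgeR adjusted p = 0.118, DESeq2 adjusted p = 0.0458).

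With the replicate block Spry4 was called in late G1 (-0.39 ± 0.07, adjusted p = 0.00193) and early G1 (-0.33 ± 0.07, adjusted p = 0.0247), with an error smaller by a factor of 3.11 and 3.1. Without the untreated libraries numbered 3, the blocked fit called Dusp4, Dusp5 and Fgf4 but not Spry4 in early G1, and all 4 in late G1. That exclusion was chosen after the data were seen.

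Spry2, the other Sprouty gene of the set, lay between 49.5 and 79.4 CPM, with library 2 the highest in each group. Its average log2 fold change was -0.04 ± 0.11 (edgeR adjusted p = 0.857, higher in 3 of 9). Spred1, which inhibits RAF activation together with neurofibromin, lay between 156 and 213 CPM. It was lower in 9 of 9 libraries against the same number, by a small amount (0.85-fold to 0.99-fold), and its average of -0.09 ± 0.05 did not pass the test (edgeR adjusted p = 0.302).

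The ETS factor genes Etv4 and Etv5, used as readouts of ERK activity in many cell types, did not pass the test with auxin. Etv4 was at 0.10 ± 0.06 on average (edgeR adjusted p = 0.316, higher in 7 of 9) and at -0.15 ± 0.11 on TPM, so its sign differed between counts and TPM. Etv5 was at -0.05 ± 0.04 (edgeR adjusted p = 0.488, lower in 8 of 9). The auxin library of Etv5 was 0.90-fold to 1.01-fold of the untreated library of the same number.

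Within single phases, edgeR called 0 of the 10 genes in early G1 and in G2, where 0.106% (0.0812% up and 0.025% down) and 0.668% of all genes were called. At an unadjusted p under 0.05 there were 2 in early G1 (Dusp4 and Fgf4) and 3 in G2 (the same with Dusp5). Among all 16011 tested genes there were 894 and 1237. DESeq2 called 0 and 1 of the 10. With the replicate block, 4 of the 10 were called in early G1 and 4 in late G1, each time Dusp4 and Dusp5 up and Fgf4 and Spry4 down, where 1.59% and 5.96% of all genes were called. In data simulated from these libraries, the test without a block recovered 46 of 100 genes changed 1.4-fold in early G1, 26 in late G1, 31 in G2 and 89 in the average, and 93, 94, 93 and 98 of 100 genes changed 2-fold. The simulated libraries shared no effect of the library number, and the changed genes had an average of at least 5 CPM. The 100 genes of each size were changed together, whereas 17 genes were called in the real early G1 comparison. How these shares apply to genes with a large spread by library number, such as Dusp5 and Spry4, was not tested.

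The auxin effect was not shown to differ between phases for any of the 10 genes. The difference of the effect between late and early G1 was -0.17 ± 0.16 for Fgf4, 0.095 ± 0.19 for Dusp4, 0.10 ± 0.49 for Dusp5 and -0.06 ± 0.33 for Spry4 (edgeR adjusted p = 1 for each). The 3 comparisons of this kind called 0 of the 10 genes and 0% of all genes in edgeR. At an unadjusted p under 0.05 they also held 0 of the 10, beside 222, 222 and 219 of all 16011 tested genes, and DESeq2 called 0. The library numbers pair the samples for late against early G1, where the blocked fit also called 0 of the 10 and 0.00625% of all genes. There 1 of the 10, Fgf4 (-0.17 ± 0.08), had an unadjusted p under 0.05, of 0.0374, with an edgeR adjusted p of 1. In the simulated data, which again held no effect of the library number, the difference between late and early G1 recovered 12 of 100 genes changed 1.4-fold and 75 of 100 changed 2-fold.

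Between phases, edgeR without the replicate block called 1 of the 10 genes, Etv4, which was lowest in early G1. The blocked fit called others too, given below. Untreated libraries had 69.8, 75.9 and 79.4 CPM in early G1, 91.8, 101 and 109 CPM in late G1 and 93.8, 89.1 and 107 CPM in G2. Auxin libraries had 73.5, 80.5 and 81.9 CPM in early G1, 102, 109 and 119 CPM in late G1 and 90.0, 113 and 107 CPM in G2. In both arms every early G1 library was below every library of late G1 and G2. Among all genes, 10.7% and 10.2% were separate and higher in late G1 and G2 than in early G1 without auxin, and 12.9% and 10.7% with it.

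From early to late G1, Etv4 rose by 0.42 ± 0.10 untreated (edgeR adjusted p = 0.0137) and by 0.48 ± 0.10 with auxin (adjusted p = 0.00543), where 7.02% and 7.42% of all genes were called, 3.27% and 3.21% upwards. The untreated call was lost without early G1 library 1 (adjusted p = 0.0715) or late G1 library 3 (adjusted p = 0.0596), and the auxin call was kept without any 1 of its 6 libraries. From early G1 to G2 it rose by 0.36 ± 0.10 untreated (adjusted p = 0.0496) and 0.39 ± 0.10 with auxin (adjusted p = 0.0331), where 3.6% and 3.88% were called, 1.9% and 2.09% upwards. The untreated G2 call was lost without any 1 of its 6 libraries (highest adjusted p 0.168), and the auxin one was kept only without G2 library 1 (highest 0.15). All 4 differences were called with the replicate block, with adjusted p-values of 3.38e-05, 6.02e-06, 0.000319 and 0.000127 in the order given, and none on TPM, where they were 0.34, 0.35, 0.28 and 0.28.

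Fgf4 and Dusp4 had their lowest group mean in late G1 in both arms, and neither passed the test without the block. In the order early G1, late G1, G2, Fgf4 was 139 ± 5.9, 122 ± 15 and 151 ± 11 CPM untreated (SD, n = 3), and 113 ± 10.0, 87.9 ± 12 and 112 ± 12 with auxin. From late G1 to G2 its log2 change was 0.31 ± 0.11 untreated (edgeR adjusted p = 0.124) and 0.35 ± 0.11 with auxin (adjusted p = 0.0714). With the replicate block these were called at adjusted p = 0.000267 and 6.99e-05, and the change from early to late G1 at 0.0101 (-0.20 ± 0.05) and 4.15e-05 (-0.37 ± 0.05). Dusp4 was 21.2 ± 1.0, 16.5 ± 1.5 and 20.3 ± 0.58 CPM untreated and 29.3 ± 2.4, 24.4 ± 5.7 and 28.4 ± 4.0 with auxin. Its blocked change from early to late G1 was -0.36 ± 0.10 untreated (adjusted p = 0.0114) and -0.28 ± 0.09 with auxin (adjusted p = 0.0392).

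**Figure D3:**
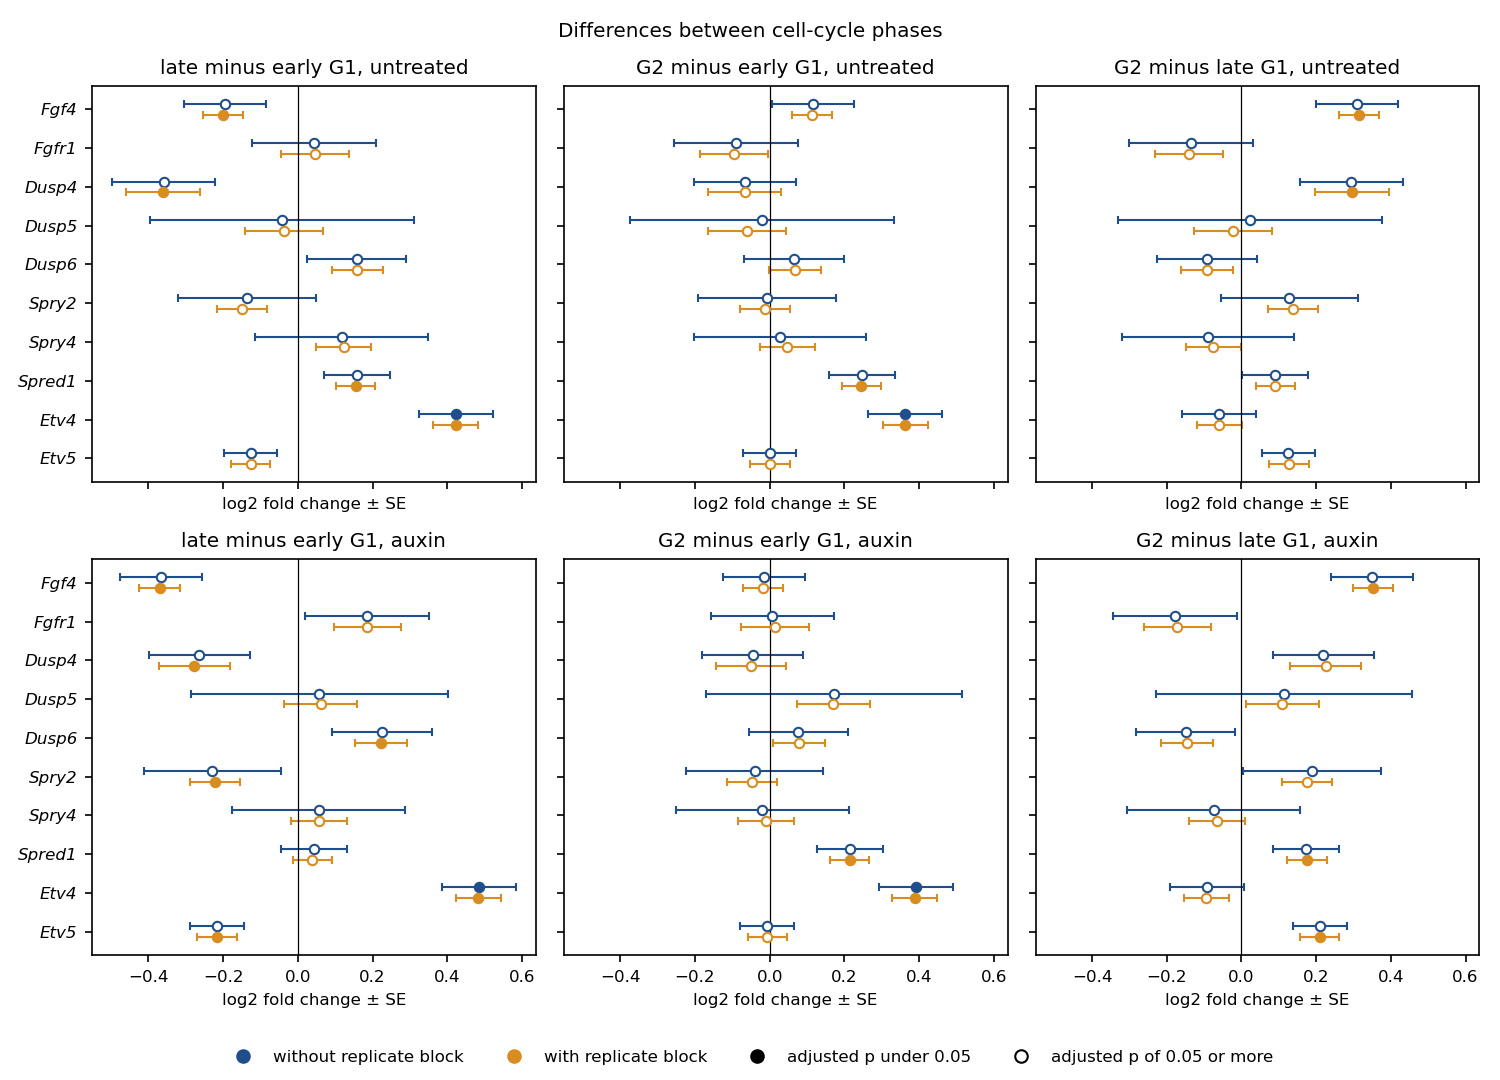
Log2 fold change between phases (points, with SE as bars) in untreated libraries (top) and auxin libraries (bottom), without (blue) and with (orange) the replicate block; filled points have an adjusted p under 0.05. Etv4 lies to the right of 0 in late G1 and G2 against early G1 in both arms, and Fgf4 lies to the left in late against early G1 and to the right in G2 against late G1.

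Groups that did not overlap between phases were more frequent than calls, among these genes and among all genes. From early to late G1 without auxin this held for 3 of the 10, Etv4 and Spred1 up and Dusp4 down, beside 23.9% of all genes. From late G1 to G2 without auxin it held for 3, all up, beside 10.9% of all genes up and 9.77% down.

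Counts of called genes between phases depended on the block. From early to late G1 the unblocked fit called 1 of the 10 genes in each arm. The blocked fit called 4 untreated, where 21.8% of all genes were called, namely Etv4 and Spred1 up and Dusp4 and Fgf4 down. With auxin it called 6 beside 22.6% of all genes, namely Etv4 and Dusp6 up and Dusp4, Etv5, Fgf4 and Spry2 down. From early G1 to G2 it called Etv4 and Spred1 up in both arms, beside 14.7% and 15.2% of all genes. From late G1 to G2 edgeR without the block called 0 in each arm, beside 5.04% (2.72% up and 2.32% down) and 5.91% of all genes. At an unadjusted p under 0.05 there were 2 of the 10 in each arm, beside 2786 and 2989 of all 16011 tested genes. DESeq2 called 0 and 2. The blocked fit called Dusp4 and Fgf4 up untreated and Etv5, Fgf4 and Spred1 up with auxin, beside 15.9% and 17.7% of all genes.

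Spred1 was highest in G2 in both arms, at 197 ± 16 CPM untreated and 188 ± 12 with auxin against 166 ± 5.5 and 162 ± 5.6 in early G1 (SD, n = 3). Its difference between G2 and early G1 was 0.25 ± 0.09 untreated (edgeR adjusted p = 0.143) and 0.22 ± 0.09 with auxin (adjusted p = 0.207), and 0.00288 and 0.00768 were the adjusted p-values with the block. Etv5 had its lowest group mean in late G1. In the same order of phases it was 365 ± 22, 335 ± 19 and 365 ± 2.4 CPM untreated, and 361 ± 14, 311 ± 12 and 359 ± 7.2 with auxin. Its difference between late and early G1 with auxin was -0.22 ± 0.07, called with the block (adjusted p = 0.00473) and not without it (adjusted p = 0.0742).

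Other genes of the pathway were taken from lists and described in the average auxin contrast, where 5.68% of all genes were called. Of 11 tested FGF ligands and receptors, 1 rose and 1 fell. The receptor Fgfr3 rose by 0.88 ± 0.13 (edgeR adjusted p = 0.000486), from group means of 1.49, 1.50 and 0.97 CPM in early G1, late G1 and G2 to 2.70, 2.86 and 1.75. The ligand Fgf15 fell by 0.80 ± 0.22 on the log2 scale (adjusted p = 0.0383), from 3.10, 3.70 and 2.31 to 1.79, 1.91 and 1.44 CPM.

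Of 21 tested genes of the RAS-ERK cascade, 1 rose and 0 fell in edgeR, with 5 at an unadjusted p under 0.05 and 2 called by DESeq2. Among all tested genes, 3636 of 16011 had an unadjusted p under 0.05 in this contrast. The adaptor Shc1, which links receptors to GRB2 and SOS, rose by 0.34 ± 0.05 (edgeR adjusted p = 0.000646), from 106, 131 and 106 CPM to 130, 171 and 136. The ERK-activated kinase gene Rps6ka1 had the next smallest p (0.15 ± 0.05, adjusted p = 0.076). The median of the list was -0.03. Of 17 other inhibitors of the pathway, 1 rose and 3 fell, with a median of -0.14 over the list. Il17rd (Sef), which holds back FGF receptor signalling, fell by 0.39 ± 0.07 (adjusted p = 0.00149), the ubiquitin ligase Cbl by 0.31 ± 0.08 (adjusted p = 0.0256) and the RAS GTPase activator Rasa2 by 0.22 ± 0.06 (adjusted p = 0.0382). The EGF receptor inhibitor Errfi1 rose by 0.25 ± 0.07 (adjusted p = 0.0383, but -0.0044 on TPM).

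Of 14 tested genes known to respond to ERK, 5 rose and 0 fell in edgeR, with a median of 0.06, and DESeq2 called the same 5 up and Myc down. The transcription factor genes Junb (0.42 ± 0.06, edgeR adjusted p = 0.00033), Fos (0.64 ± 0.13, adjusted p = 0.0066), Egr2 (1.29 ± 0.33, adjusted p = 0.0241) and Jun (0.27 ± 0.07, adjusted p = 0.0419) rose, as did the survival gene Mcl1 (0.17 ± 0.04, adjusted p = 0.0315, but -0.04 on TPM). Junb went from 73.6, 58.1 and 45.9 CPM to 96.1, 82.7 and 59.3, whereas Egr2 stayed below 1 CPM in the mean of every group. Egr1 (-0.41 ± 0.27, adjusted p = 0.384) and Myc (-0.45 ± 0.16, adjusted p = 0.109), both named after their values were seen, had values of the other sign and did not pass in edgeR. On TPM the value of Jun was near 0 (0.02).

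Of the 4 genes for ternary complex factors and Srf, which bind CArG boxes and their flanks, edgeR and DESeq2 called 0. At an unadjusted p under 0.05 there was 1, Elk3 (-0.32 ± 0.14, edgeR adjusted p = 0.177), beside 3636 of all 16011 tested genes. Elk4 was at -0.27 ± 0.14 (adjusted p = 0.242). Of 16 tested genes for heparan sulphate, the cofactor of FGF binding, 2 rose and 2 fell. Glce (0.23 ± 0.05, adjusted p = 0.0106) and Sdc1 (0.19 ± 0.05, adjusted p = 0.028, but -0.02 on TPM) rose, and the chain-building enzyme gene Ext1 (-0.24 ± 0.06, adjusted p = 0.0256) and the core protein gene Gpc4 (-0.40 ± 0.11, adjusted p = 0.0496) fell.

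**Figure D4:**
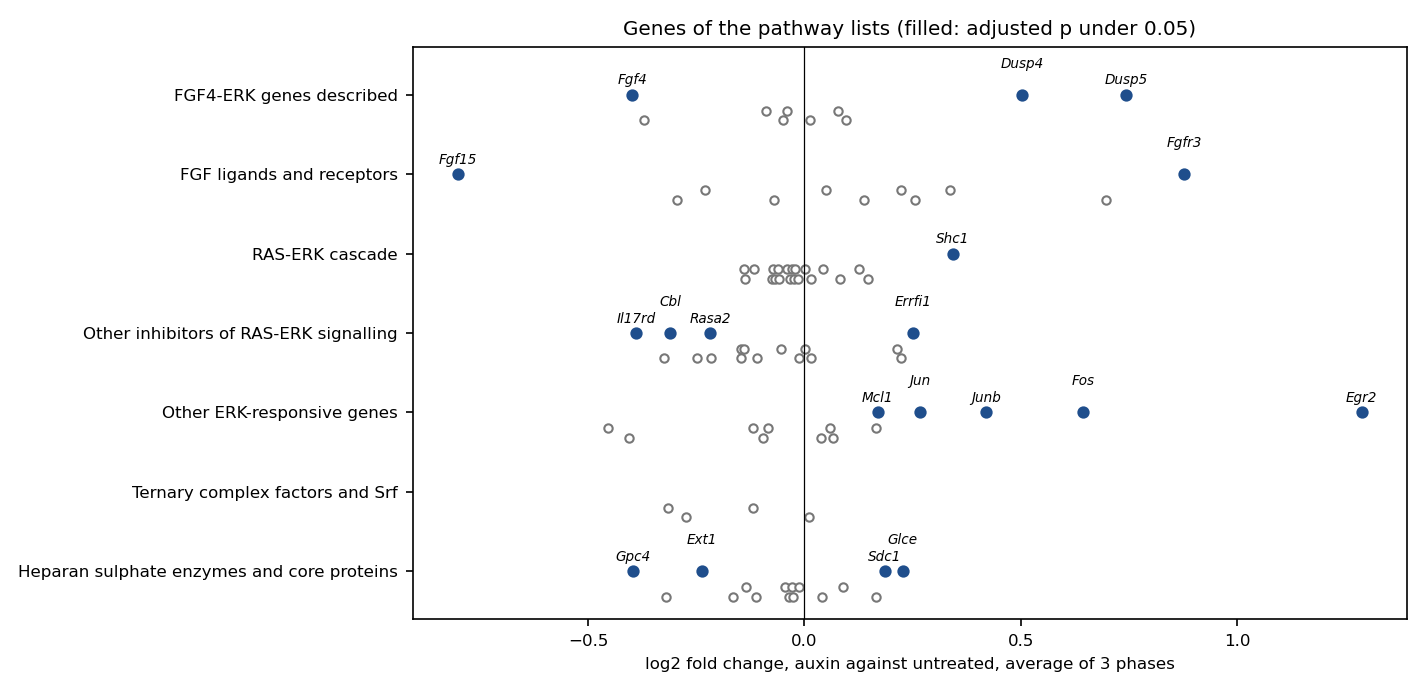
Log2 fold change with auxin, averaged over the 3 phases, of each tested gene (1 point) in the described set and in 6 lists of related genes; filled points with names have an edgeR adjusted p under 0.05, open points do not. Called genes lie on both sides of 0 in 4 of the 7 rows, in the row of other ERK-responsive genes all 5 lie above 0, and the cascade row holds 1, Shc1.

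Of the 16 called genes in these lists, 6 kept their call without any 1 library and 10 lost it in some such fits (called in 5 to 13 of 18). The 6 were Fgfr3, Shc1, Il17rd, Junb, Fos and Glce. The direction of Sdc1, Mcl1 and Errfi1 differed between counts and TPM, as given above, and on TPM Glce was at 0.0078, near 0. On the other scalings of the counts, 0 of the 16 changed direction.

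Some of the other ERK-responsive genes were lower in G2 than in early G1, whereas Etv4 was higher. In G2 against early G1, 5 of 14 were lower and 0 higher in each arm, where 3.6% and 3.88% of all genes were called, 1.7% and 1.79% downwards. They were Fos, Fosb, Egr1, Jun and Junb, of which Fosb and Egr1 were named after their values were seen. Jun was at -0.92 ± 0.13 untreated (edgeR adjusted p = 0.000387) and -0.96 ± 0.13 with auxin (adjusted p = 0.000209). Junb was at -0.68 ± 0.11 (adjusted p = 0.00111) and -0.70 ± 0.11 (adjusted p = 0.00076). Jun and Junb kept these calls without any 1 library in both arms, and Fos did so untreated. With auxin, Fos and Fosb kept the call in 1 of 6 such fits and Egr1 in 0 of 6. Untreated, Fosb kept it in 4 of 6 and Egr1 in 2 of 6. From early to late G1, 3 of the 14 were called down untreated and 1 with auxin, beside 3.75% and 4.21% of all genes. The list medians were -0.35 and -0.25. From late G1 to G2, 1 was called down in each arm, beside 2.32% and 2.43%, with medians of -0.12 and -0.13.

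Markers of other cell types moved with auxin beside these results. Of 9 ES cell markers, 5 fell (Klf4, Zfp42, Nanog, Tfcp2l1 and Esrrb), while the other 4 were not called in edgeR and had values above 0. Of these 4, Tdgf1 had an unadjusted p under 0.05. It was called up with the replicate block, although the average does not pass the pairing limit. The summed level of the 9 markers was 3174 to 3550 CPM untreated and 3075 to 3380 CPM with auxin. Of 7 tested trophectoderm markers, 5 rose (Gata2, Eomes, Cdx2, Krt18 and Krt8) and 1 fell (Tfap2c), with sums over 8 listed genes of 26.6 to 48.5 CPM untreated and 36.8 to 59.9 CPM with auxin. Of 9 primitive endoderm markers, the fate that FGF4 promotes in the embryo, 1 rose (Sox7), with sums of 96.1 to 199 and 79.3 to 177 CPM. Of 7 tested entries for 6 formative epiblast markers, 1 of the pair that share the symbol Pou3f1 rose, with sums of 117 to 162 and 125 to 209 CPM. Of 5 tested fibroblast markers edgeR called 0, with 2 at an unadjusted p under 0.05 and 0 called by DESeq2. Among all tested genes, 3636 of 16011 had such an unadjusted p in the average. The 9 listed fibroblast markers summed to 6.41 to 12.96 and 8.27 to 11.9 CPM. No listed marker was at 0 in all libraries. Of the 13 marker calls, 4 were lost in some fits without 1 library, namely Esrrb (kept in 5 of 18), Tfcp2l1 (10), Krt18 (7) and Krt8 (6). Markers moved between phases as well. In G2 against early G1 without auxin, 1 of the 9 primitive endoderm markers was called up, all 9 had values above 0 and their median was 0.59, while with auxin 0 were called, 8 were above 0 and the median was 0.20. Against late G1, G2 had 2 called up without auxin and a median of 0.75, and 0 called with a median of 0.55 with auxin, with 9 of 9 above 0 in each. Of the trophectoderm markers, 1 of 7 was called down in G2 against early G1 without auxin (median -0.50) and 2 with it (median -0.35). The part of these markers in the results above, between phases and with auxin, was not tested.

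Among 10012 named genes above a floor of 1 on the average log2 CPM, the pattern over the 6 groups nearest to that of Fgf4 was found for Ttn, Jam2 and Bambi, with a root mean square difference of 0.044, 0.054 and 0.057 on the log2 scale. For Dusp4 the nearest were Vegfa (0.023), Ier5 (0.071) and Plekha6 (0.078), and for Dusp5 they were Sh3tc1 (0.083), Ntf5 (0.090) and Speg (0.099). With auxin, 7 of these 9 genes were called in the average, beside 5.68% of all tested genes. The choice by likeness to called genes favours such calls. Ttn (-0.37, edgeR adjusted p = 0.17) and Plekha6 (0.42, adjusted p = 0.0904) were not called. Those called had values of -0.45 for Jam2 and -0.36 for Bambi, 0.48 for Vegfa and 0.52 for Ier5, and 0.61, 0.82 and 0.58 for Sh3tc1, Ntf5 and Speg. Likeness was taken over 6 group means of centred log2 CPM, which share the libraries of the comparisons above, so it is a description only.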

How the data were processed

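RNA of 18 libraries was used. The deposited count table holds expected counts, all of them whole numbers in the table, and a companion deposited table gives the authors' TPM. The submitters' processing notes name STAR, RSEM and mm9 without versions or roles. Strand is not given in the sources used here, so overlapping and antisense genes cannot be told apart. A table of chromatin profiles was not used.

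Genes were filtered with filterByExpr by group, normalised by TMM and compared by edgeR 4.0.16 (quasi-likelihood F test, robust) in one model of 6 groups with 12 residual degrees of freedom, and adjusted by Benjamini-Hochberg over 16011 genes. A gene was called at an adjusted p under 0.05. The SE is the log2 fold change divided by the square root of F. TPM were tested as log2(TPM + 1) in limma 3.58.1, which understates changes of low genes. DESeq2 1.42.0 was an alternative. The scripts were tested on simulated data.

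The labels do not say whether library numbers pair samples. By a limit of 0.1 on every same-number correlation of deviations from group means, they do for the auxin contrast at both G1 stages (lowest 0.223) for its difference between them (lowest 0.126) and for all phase contrasts (lowest 0.192), and not for auxin in G2, the average or the differences with G2 (lowest 0.0528), so blocked values stand beside the former. All 18 libraries correlated best with their own number.

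The named genes are the 10 in every contrast, list genes called in the average and the 2 of each list with the smallest p there, and for each of the 10 called in the average the 3 genes of nearest pattern. Other list genes named are Ccnd1, Egr1, Fosb, Myc and Tdgf1, chosen after their values were seen. The 10 genes, the 11 lists and the tests were chosen with earlier results of these data known. Settings tried were other scalings, filters, DESeq2, TPM, the replicate block, fits of only the groups compared and leaving out libraries.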

Additional observations from a re-analysis of the deposited data

How the results depend on the processing

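For auxin in early G1 the replicate block called 4 of the 10 genes in place of 0, and 3 without the untreated libraries numbered 3 (chosen after seeing the data). In late G1, in place of 1, DESeq2 and no low-count filter called 2, the block 4 with and without those libraries, and TPM (either pseudocount) and a fit of only those groups 0. In G2, in place of 0, DESeq2 called 1 and the block 4 with and without those libraries. There the block on the full data called 3.51% of all genes. In the average, in place of 3, the block called 6 with and without those libraries, adding Spry4 (-0.37 ± 0.04), Etv4 (0.10 ± 0.03) and Spred1 (-0.09 ± 0.03), and TPM called 1. In the average the block called 24.6% of all genes, and among the lists 3 up and 1 down of the FGF ligands and receptors and of the cascade, 2 and 5 of the other inhibitors, 5 and 3 of the ERK-responsive genes (Ccnd1, Egr1 and Myc down), 0 and 2 of the ternary complex list, 2 and 3 of the heparan sulphate list, 1 and 5 of the ES cell, 2 and 0 of the primitive endoderm, 3 and 0 of the formative, 5 and 1 of the trophectoderm and 2 and 0 of the fibroblast markers. For G2 and the average the numbers do not pass the pairing limit.

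Between phases, late minus early G1 untreated (1 called) had 4 with the block with and without those libraries, and 0 on TPM and with only those groups. G2 minus early G1 untreated (1) had 2 with the block with and without those libraries, and 0 with no or a stricter low-count filter, scaling without the 20 most abundant genes, TPM, only those groups, and without the untreated libraries numbered 3. G2 minus late G1 untreated (0) had 2 with the block and 1 without those libraries. Late minus early G1 with auxin (1) had 3 with DESeq2, the stricter filter and without those libraries, 6 with the block with and without them, 2 with scaling without the 20 most abundant genes and 0 on TPM. G2 minus early G1 with auxin (1) had 2 with the block with and without those libraries and 0 on TPM and with only those groups. G2 minus late G1 with auxin (0) had 2 with DESeq2, 3 with the block and 5 without those libraries.

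Leaving out single libraries or numbers gave 0 to 1 called for late G1, 2 to 4 for the average, 0 to 1 for late minus early G1 untreated, 0 for G2 minus early G1 untreated, 0 to 2 for late minus early G1 with auxin, and 0 to 1 for both other auxin phase contrasts. For these fits, DESeq2 and the other filters, the share of all genes called is not given here, so their counts lack a background. No call was reversed: of 193 values of called genes under alternatives, 125 kept the call and 68 lost it. Of 2697 values of uncalled genes, 75 gained one. On TPM the median of all genes in the average was -0.08 with a pseudocount of 1 and -0.16 with 0.1, and 59 genes were called up and 689 down on TPM against 416 and 494 on counts. The gene with the most TPM held 504511 to 624417 TPM in a library. The part of that gene, or any other cause of these differences, was not tested. Comparing the auxin effect between phases gave 0 in every setting run. With 3 libraries a group, changes of 1.4-fold in single phases were mostly missed in simulated data.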
